A study of Mus musculus with 8 samples.

Results

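Interferon-stimulated genes are the genes that cells switch on when an interferon binds its receptor, and 40 of them were followed here in the mouse retina after exposure to a high level of oxygen. The members were a list of gene names, and a member was measured where the array held a probe set, a group of short probes along 1 transcript, whose annotation gave that gene symbol and no other. Of the 40 genes, 36 were measured in this way, among 19938 genes with such a probe set on the array. *Gbp2*, *Igtp* and *Isg15* were listed only on probe sets that carry several symbols, and with *Ifi44* these 4 genes were not analysed here. The animals were C57BL/6J mice, an inbred strain with pigmented eyes, raised and kept throughout in dim cyclic light. Starting at 83 to 90 days of age, 1 set of mice breathed 75% oxygen without interruption for 14 days (hyperoxia), and the control mice stayed in normoxia and were killed at the same age. Each retina was cut into a superior and an inferior part, which gave the groups control superior, control inferior, hyperoxia superior and hyperoxia inferior, with 2 arrays in each of the 4 groups and 8 in all. Every sample pooled retinas of 2 animals, 1 male and 1 female, and since no source says whether the replicates came from separate animals, a p-value reflects only how far the arrays of a group lay apart, which may be technical. The question was whether these genes respond to hyperoxia, and whether the inferior retina, where photoreceptors are more vulnerable to oxygen, differs in this from the superior retina.

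Interferons are secreted proteins that warn cells of viral nucleic acid and of tissue injury. Type I interferons bind a receptor made of *Ifnar1* and *Ifnar2* and type II interferon binds *Ifngr1* and *Ifngr2*, and kinases on the receptors then phosphorylate STAT proteins. A complex of STAT proteins with the protein of *Irf9* binds the interferon-stimulated response element, and STAT dimers bind the gamma-activated site. The induced proteins sense foreign RNA, block its translation, hold back the entry or budding of virus, coat vacuoles as GTPases, or tag proteins with ISG15, ubiquitin or ADP-ribose. In the retina, microglia and Muller glia are known to express such genes when the tissue is stressed.

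Promoter sequence was read for the members in a RefSeq table of mouse build GRCm38.p6, in which each window of 300 bases holds 250 bases before and 50 after a transcription start, and 29 of the 40 members had a window. The core of the response element, GAAANNGAAA on either strand, was present in 17 of these 29 genes (58.6%), against 3.99% of all 27025 genes in the table. The core of the gamma-activated site, TTCNNNGAA, which reads the same on both strands, was present in 8 of 29 (27.6%), against 9.55% of all genes. A member's name is tied to interferon response, so these shares describe the list and are not a test. The stretches that follow are from the members that passed the test in at least 1 comparison and had a response element match before the start and outside the gene record, and *Oas3* is added, after its values were seen, because it has a match and a log2 difference of only 0.02 in the inferior retina. Capitals mark the matched response element core, on either strand, each stretch is printed in the direction of its gene, and the 2 motifs overlap in *Bst2*, where a gamma-activated site core shares bases with the first match.
*Irgm1*, chr11:48871421-48871465, minus strand: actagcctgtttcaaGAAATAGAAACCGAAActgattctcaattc
*Trim30a*, chr7:104465205-104465244, minus strand: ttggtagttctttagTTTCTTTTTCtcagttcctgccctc
*Ifit1*, chr19:34640770-34640828, plus strand: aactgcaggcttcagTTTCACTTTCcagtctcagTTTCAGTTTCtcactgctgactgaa
*Bst2*, chr8:71537572-71537617, minus strand: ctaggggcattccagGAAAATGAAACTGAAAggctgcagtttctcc
*Oas3*, chr5:120777710-120777749, minus strand: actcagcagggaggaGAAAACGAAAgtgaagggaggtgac
The nearest match ended 14 bases before the start in *Irgm1*, 26 in *Trim30a*, 75 in *Ifit1*, 114 in *Bst2* and 65 in *Oas3*. Among 25 measured members with a window, the 14 with the response element core had log2 differences of 0.02 to 1.11 after hyperoxia in the inferior retina (median 0.63), and the 11 without it had differences of 0.12 to 1.14 (median 0.29). The 7 with the gamma-activated site core had a median of 0.50, and the 18 without it had 0.47. Neither split was tested. *Irf9* and *Oasl2*, which had the largest differences of all members, held neither core in their windows, which says only that these letters are not there.

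The deposited values are log2 levels from Affymetrix Mouse Gene 1.0 ST arrays, and levels of different genes are not compared, since each probe set binds with its own strength. The tissue label was checked on its markers: of 15 retinal genes 13 were measured, and their log2 levels ran from 8.12 for *Rbpms* to 14.26 for *Gnat1*, the rod transducin. Array medians lay between 6.98 and 7.05. Lens transcripts stood far apart on control inferior replicate 2, where the median of 12 lens genes lay 3.44 above each gene's mean over the arrays, against -0.87 to -0.06 on the other 7. The number of arrays limits the precision. Of the members, 9 had a mean log2 level under 6, the limit taken here for dim probe sets. The lowest were *Mx1* at 3.61, *Mx2* at 4.68, *Gbp5* at 4.82 and *Gbp4* at 5.13.

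After hyperoxia, interferon-stimulated genes were higher in the inferior retina. In 36 of 36 measured members the mean of the hyperoxia inferior arrays lay above that of the control inferior arrays, with a median log2 difference of 0.45 (range 0.02 to 1.14), against a median of 0.0054 over all 28853 probe sets, of which 51.6% were above 0; the exceptions to this direction were *Oas3*, below 0 after quantile normalization, after median centring and without control inferior replicate 2 or hyperoxia inferior replicate 1, and *Samd9l*, below 0 without control inferior replicate 2 or hyperoxia inferior replicate 2. *Oasl2*, *Irf9*, *Ifitm3*, *Irgm1*, *Trim30a*, *Ifit1*, *Parp9* and *Bst2* passed the test (limma, adjusted p under 0.05 over all probe sets), so 8 members were higher and 0 were lower. Over all probe sets 0.43% passed in this direction. *Irf9*, *Irgm1*, *Bst2* and *Usp18* are also among genes that the study selected on these arrays, so their direction is not independent evidence. At an unadjusted p under 0.05 there were 24 members higher and 0 lower, against 4.96% of all probe sets higher, and in 28 members both hyperoxia inferior arrays lay above both control inferior arrays, against 20.5%. On 21 members the hyperoxia inferior arrays lay above all other 6 arrays, against 6.95% of probe sets. The retina was measured whole, so more cells of a type and more RNA per cell cannot be told apart.

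**Figure D1:**
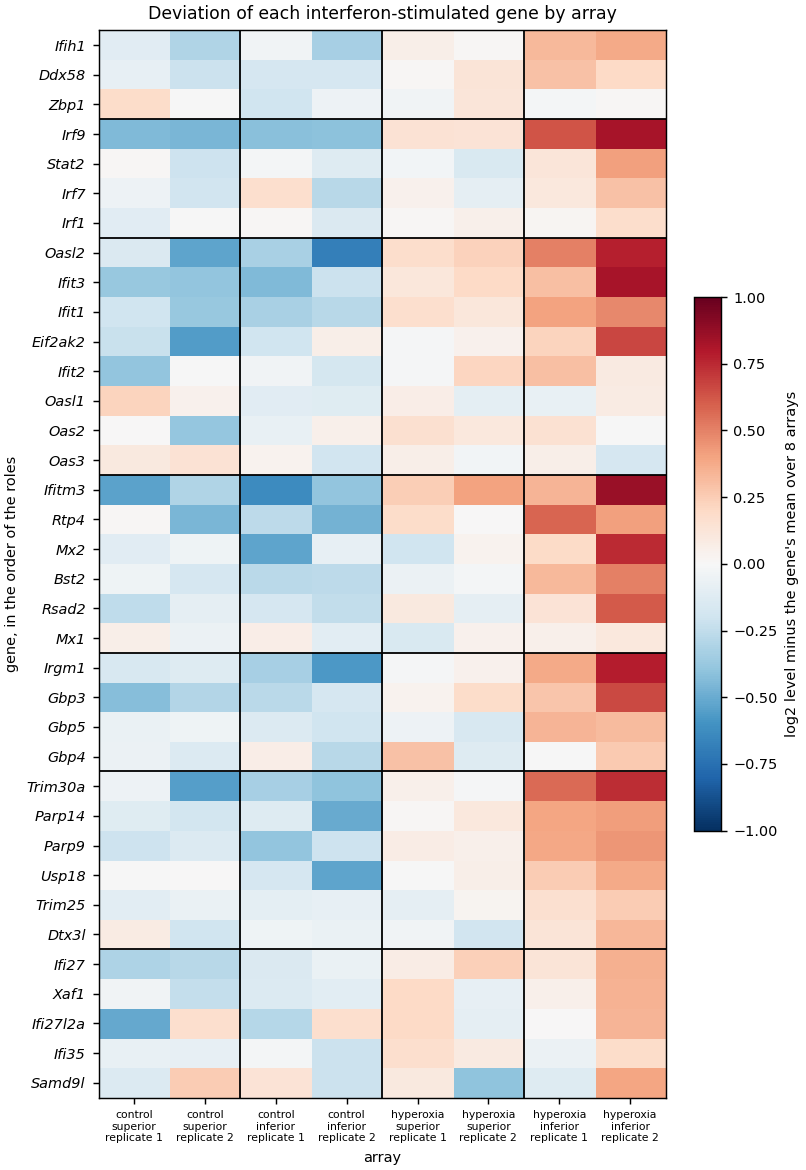
Deviation of the log2 level of each of the 36 measured members (rows, in blocks by role) from that gene's mean over the 8 arrays (columns), from blue (below the mean) to red (above it). The control columns are mostly blue and the hyperoxia inferior columns mostly red, with 31 and 34 of 36 members above their mean on hyperoxia inferior replicates 1 and 2, and 3 to 8 on the control arrays.

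Across the arrays, the median deviation of the members from each gene's mean was -0.11 and -0.18 for control superior, -0.16 and -0.21 for control inferior, 0.05 and 0.04 for hyperoxia superior, and 0.21 and 0.38 for hyperoxia inferior retina. The control arrays lay lowest, the hyperoxia superior arrays between and the hyperoxia inferior arrays highest. Within the last group, 30 of 36 members were higher on replicate 2. Leaving out 1 array lowered the count of 8 to 1 without hyperoxia inferior replicate 2, to 4 without hyperoxia inferior replicate 1, to 2 without control inferior replicate 2 (the array with lens transcripts), to 5 without control inferior replicate 1, to 4 without either control superior array and to 5 without either hyperoxia superior array. Some of these counts included members that were not among the 8. A fit without 1 array has fewer degrees of freedom, and its calls over all probe sets are not given here. How far the drop is particular to the members or to 1 array was therefore not tested. The same holds for such counts in the mean of both regions below. With 1 array left out, the median log2 difference ran from 0.38 without hyperoxia inferior replicate 2 to 0.48 without replicate 1. It was 0.44 without control inferior replicate 2. In the absence of the latter array, *Bst2*, *Ifit1*, *Ifitm3*, *Irgm1*, *Oasl2* and *Trim30a* no longer passed, with log2 differences of 0.68, 0.76, 1.23, 0.91, 0.96 and 0.99 and adjusted p-values from 0.0627 to 0.114 (limma). Of 18 alternative analyses, *Irf9* was past the threshold in 17, *Ifit1* and *Irgm1* in 12, *Oasl2* and *Parp9* in 11, *Bst2* and *Trim30a* in 10 and *Ifitm3* in 8. By the methods' t-test, which does not share information on the spread among probe sets, 0 members passed after adjustment. Of all probe sets 2 did.

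Of 4 transcription factors 1 passed the test as higher in the inferior retina. The log2 levels of *Irf9*, the DNA-binding partner of STAT proteins, were 7.32 and 7.30 for control superior, 7.34 and 7.35 for control inferior, 7.90 and 7.90 for hyperoxia superior, and 8.39 and 8.58 for hyperoxia inferior retina. The 4 control arrays lay close together, and neither hyperoxia group overlapped with them. *Irf9* rose by a log2 value of 1.14 ± 0.09 (SE) in the inferior retina, a fold ratio of 2.21 (limma, adjusted p = 0.00129), and among the alternative analyses it missed the threshold with the methods' t-test (adjusted p = 0.114). The other 3 factors did not pass. For *Stat2*, its partner in the same complex, the log2 difference was 0.34 (adjusted p = 0.448), and for *Irf7*, which amplifies the transcription of type I interferon genes, it was 0.25 (adjusted p = 0.665).

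*Irf1*, a factor induced mainly by type II interferon, had 2 probe sets. On the brighter one, which stands for the gene by the rule, the difference in the inferior retina was 0.16 (adjusted p = 0.678). On the other, the log2 levels were 6.32 and 6.31 for control superior, 6.47 and 6.31 for control inferior, 6.43 and 6.44 for hyperoxia superior, and 6.81 and 6.73 for hyperoxia inferior retina. There both hyperoxia inferior arrays lay above all others, and the *Irf1* difference was 0.38 (adjusted p = 0.156), so neither probe set passed.

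The 3 cytoplasmic sensors had log2 differences of 0.12 to 0.54 in the inferior retina, and none of them passed (2 had an unadjusted p under 0.05). *Ifih1*, which encodes the long double-stranded RNA sensor MDA5, had the largest at 0.54 (adjusted p = 0.136). *Ddx58*, which encodes RIG-I, a sensor of RNA ends made by viruses, had 0.41 (adjusted p = 0.136). *Zbp1*, a sensor of left-handed nucleic acid that can start necroptosis, had 0.12 (adjusted p = 0.768) at a mean log2 level of 5.68.

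Among 8 effectors that act on RNA or translation, 2 passed the test as higher in the inferior retina. The others had differences of 0.02 to 0.89. *Oasl2*, an interferon-induced protein of the oligoadenylate synthetase-like family, had log2 levels of 7.89 and 7.51 for control superior, 7.71 and 7.35 for control inferior, 8.21 and 8.27 for hyperoxia superior, and 8.54 and 8.81 for hyperoxia inferior retina. All 4 hyperoxia arrays lay above all 4 control arrays. *Oasl2* rose by 1.14 ± 0.17 (SE) on the log2 scale, a fold ratio of 2.21 (limma, adjusted p = 0.0284).

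*Ifit1*, whose product binds viral messenger RNA that lacks the cell's own cap methylation, showed 6.29 and 6.11 for control superior, 6.17 and 6.21 for control inferior, 6.66 and 6.60 for hyperoxia superior, and 6.89 and 6.97 for hyperoxia inferior retina (log2 levels). The groups followed each other without overlap between control and hyperoxia in either region. *Ifit1* rose by 0.74 ± 0.09 (SE) in the inferior retina, a fold ratio of 1.67 (limma, adjusted p = 0.0155). For *Ifit3* the levels were 7.07 and 7.05, 7.00 and 7.23, 7.56 and 7.64, and 7.75 and 8.27 in the same order of groups. Hyperoxia inferior replicate 2 lay well above replicate 1, and the *Ifit3* difference of 0.89 ± 0.16 (SE) did not pass (adjusted p = 0.0701). The *Ifit* genes are neighbours of similar sequence, so probes could bind more than 1 of them.

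*Eif2ak2* encodes PKR, the kinase that stops translation when it meets double-stranded RNA. Its log2 levels were 6.43 and 6.09 for control superior, 6.45 and 6.71 for control inferior, 6.64 and 6.69 for hyperoxia superior, and 6.87 and 7.31 for hyperoxia inferior retina. The arrays of each group except hyperoxia superior lay far apart. The difference of 0.52 in the inferior retina did not pass (adjusted p = 0.356). At the other end, the synthetases that make oligoadenylate to activate RNase L did not pass: *Oas3* had a log2 difference of 0.02 with a 95% interval of -0.24 to 0.29, and *Oas2* one of 0.09 (-0.22 to 0.39). *Oasl1*, a relative that restrains the translation of *Irf7*, had 0.12 (-0.12 to 0.36). *Ifit2* had 0.30 (adjusted p = 0.593).

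Of 6 membrane and trafficking effectors, 2 passed the test as higher in the inferior retina. *Ifitm3*, which blocks the fusion of viruses with endosomes, had log2 levels of 8.51 and 8.75 for control superior, 8.41 and 8.65 for control inferior, 9.29 and 9.44 for hyperoxia superior, and 9.38 and 9.91 for hyperoxia inferior retina. All hyperoxia arrays lay above all control arrays, and replicate 1 of the hyperoxia inferior group lay below the upper hyperoxia superior array. *Ifitm3* rose by 1.11 ± 0.18 (SE) in the inferior retina, a fold ratio of 2.16 (limma, adjusted p = 0.0416), the least steady of the 8 calls over the alternatives.

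*Bst2* encodes tetherin, which holds budding virus at the cell surface. The log2 levels of *Bst2* were 7.46 and 7.34 for control superior, 7.24 and 7.24 for control inferior, 7.44 and 7.48 for hyperoxia superior, and 7.83 and 8.01 for hyperoxia inferior retina. Both hyperoxia inferior arrays lay above all others, and the superior groups overlapped. *Bst2* rose by 0.68 ± 0.10 (SE) in the inferior retina, a fold ratio of 1.60 (limma, adjusted p = 0.0261), with a difference of 0.07 (95% interval -0.15 to 0.29) in the superior retina.

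*Rtp4*, a chaperone of receptors on their way to the membrane that interferon induces, showed 6.79 and 6.33 for control superior, 6.52 and 6.31 for control inferior, 6.97 and 6.78 for hyperoxia superior, and 7.36 and 7.19 for hyperoxia inferior retina. The difference of 0.86 ± 0.16 (SE) missed the threshold (adjusted p = 0.0738). *Mx2*, a dynamin-like antiviral GTPase, had levels of 4.56 and 4.63, 4.15 and 4.59, 4.48 and 4.71, and 4.87 and 5.43 in the same order, where control inferior replicate 1 and hyperoxia inferior replicate 2 set most of its difference of 0.78 (adjusted p = 0.195). *Mx1*, a related gene that is defective in most laboratory strains, had a difference of 0.10 (adjusted p = 0.824), and *Rsad2*, which encodes viperin, one of 0.58 (adjusted p = 0.215).

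Interferon-inducible GTPases assemble on vacuoles and membranes that hold microbes. *Irgm1*, which regulates the other GTPases of its family and autophagy, had log2 levels of 6.59 and 6.62 for control superior, 6.42 and 6.18 for control inferior, 6.73 and 6.79 for hyperoxia superior, and 7.13 and 7.53 for hyperoxia inferior retina. The control inferior arrays were the lowest of all and the hyperoxia inferior arrays the highest. *Irgm1* rose by 1.03 ± 0.14 (SE) in the inferior retina, a fold ratio of 2.04 (limma, adjusted p = 0.0213). It was the only 1 of the 4 measured GTPases to pass the test there.

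The guanylate-binding proteins are large GTPases that attack the membranes of pathogens. *Gbp3* had log2 levels of 6.52 and 6.65 for control superior, 6.68 and 6.78 for control inferior, 6.99 and 7.14 for hyperoxia superior, and 7.23 and 7.61 for hyperoxia inferior retina, with all hyperoxia arrays above all control arrays. Its difference of 0.69 ± 0.13 (SE) in the inferior retina did not pass (adjusted p = 0.0876). *Gbp5*, which promotes inflammasome assembly, was dim, with a difference of 0.50 (adjusted p = 0.0602), and *Gbp4* had 0.24 (adjusted p = 0.718). These genes lie in clusters of near copies, and probes could bind more than 1 of them.

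The system of ubiquitin, ISG15 and ADP-ribose was the block in which every measured member had an unadjusted p under 0.05 in the inferior retina, 6 of 6, and 2 of them passed after adjustment. *Trim30a*, a ubiquitin ligase that dampens Toll-like receptor signals, had log2 levels of 6.12 and 5.62 for control superior, 5.83 and 5.76 for control inferior, 6.21 and 6.15 for hyperoxia superior, and 6.73 and 6.90 for hyperoxia inferior retina. The control superior arrays lay far apart, and the hyperoxia inferior arrays lay above all others. *Trim30a* rose by 1.02 ± 0.15 (SE), a fold ratio of 2.03 (limma, adjusted p = 0.0334), and it has close relatives in its gene cluster.

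*Parp9*, an inactive or weakly active ADP-ribosyltransferase relative that works with the ubiquitin ligase *Dtx3l*, had log2 levels of 6.69 and 6.76 for control superior, 6.50 and 6.69 for control inferior, 6.97 and 6.95 for hyperoxia superior, and 7.28 and 7.34 for hyperoxia inferior retina. Both regions showed hyperoxia arrays above control arrays. *Parp9* rose by 0.71 ± 0.09 (SE) in the inferior retina, a fold ratio of 1.64 (limma, adjusted p = 0.0195). *Dtx3l* lies head to head with it, the gene records overlapping at chr16:35926515-35939027 and chr16:35938470-35972621 (GRCm38.p6), and had a difference of 0.29 (adjusted p = 0.518). For *Parp14*, a larger enzyme of the same family encoded nearby, the levels were 6.75 and 6.69, 6.75 and 6.37, 6.88 and 6.98, and 7.27 and 7.29 in the same order, and its difference of 0.72 ± 0.12 (SE) just missed the threshold (adjusted p = 0.0596).

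*Usp18* removes ISG15 from proteins and holds back signalling at the type I receptor. Its log2 levels were 6.18 and 6.19 for control superior, 6.01 and 5.66 for control inferior, 6.18 and 6.24 for hyperoxia superior, and 6.44 and 6.56 for hyperoxia inferior retina, so that the inferior groups lay on both sides of the superior groups. The difference of 0.66 ± 0.12 (SE) did not pass (adjusted p = 0.0714). *Trim25*, the ubiquitin ligase that activates RIG-I, had 0.30 (adjusted p = 0.286).

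The remaining 5 induced genes had differences of 0.17 to 0.35 in the inferior retina, and none passed (2 had an unadjusted p under 0.05). *Ifi27*, whose product sits in mitochondria or the nuclear envelope, had log2 levels of 7.49 and 7.52 for control superior, 7.65 and 7.73 for control inferior, 7.87 and 8.04 for hyperoxia superior, and 7.93 and 8.15 for hyperoxia inferior retina. All hyperoxia arrays lay above all control arrays, and the difference was 0.35 for the inferior and 0.45 for the superior retina. The gene record of *Ifi27l2a*, a close relative with a difference of 0.23, spans that of *Ifi27* on chromosome 12, so the values of both are uncertain.

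**Figure D2:**
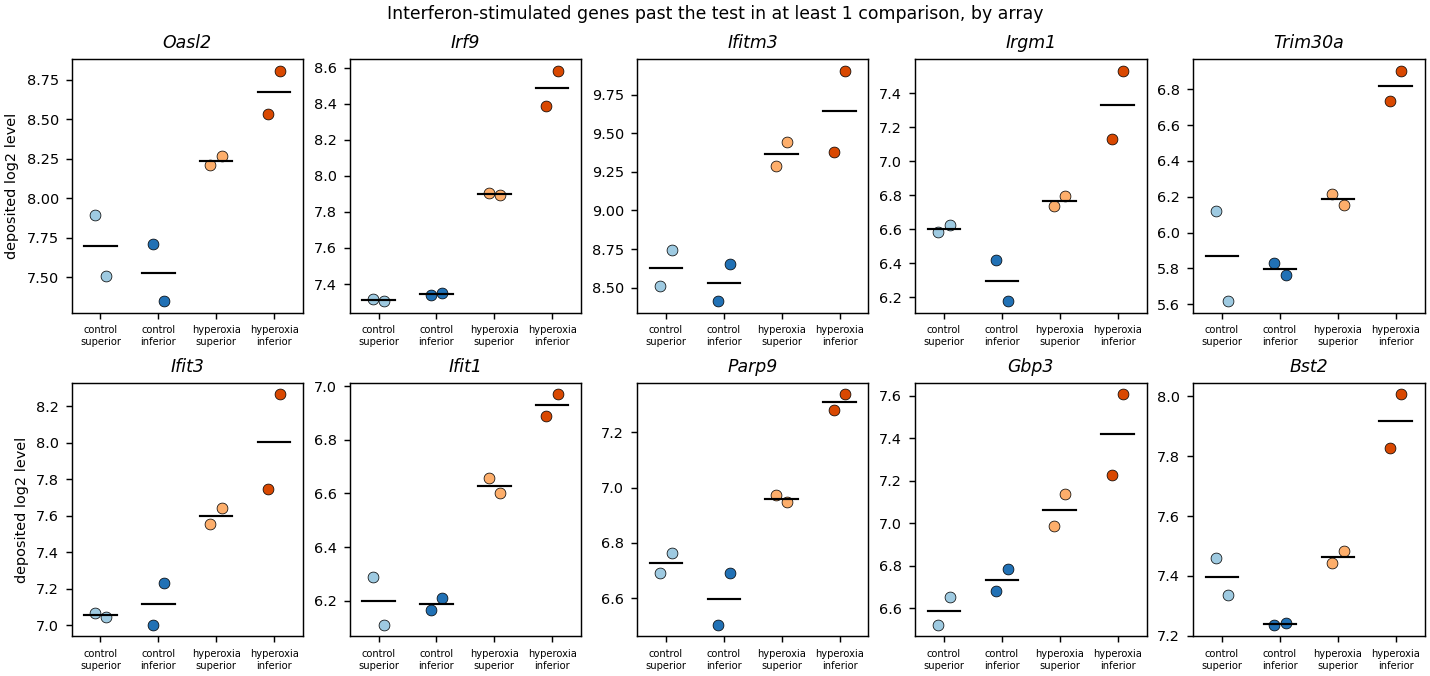
Deposited log2 level (vertical axis, a separate scale for each gene) of the 10 members that passed the test in at least 1 comparison, on each array. Points are arrays, colours are the 4 groups and bars are group means. The hyperoxia inferior group has the highest mean in all 10 panels, and the hyperoxia superior group comes second.

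In the superior retina no member passed (limma, 0 of 36, and 0 by the methods' t-test after adjustment), where 0.0139% of all probe sets passed as higher. At an unadjusted p under 0.05 there were 11 members higher and 0 lower, against 3.43% of probe sets higher, and in 17 members the hyperoxia superior arrays lay above the control superior arrays, against 18.7%. The median log2 difference was 0.20 (range -0.21 to 0.74), with 28 members above 0 and 8 below. The 6 largest were *Ifitm3* at 0.74 (95% interval 0.34 to 1.14, adjusted p = 0.543), *Irf9* at 0.59 (0.38 to 0.80, adjusted p = 0.245), *Ifit3* at 0.54 (0.17 to 0.91), *Oasl2* at 0.54 (0.16 to 0.92), *Gbp3* at 0.47 (0.17 to 0.78) and *Ifi27* at 0.45 (0.21 to 0.69). Their adjusted p-values were 0.245 to 0.762, and single intervals that leave out 0 are not corrected for the number of genes.

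**Figure D3:**
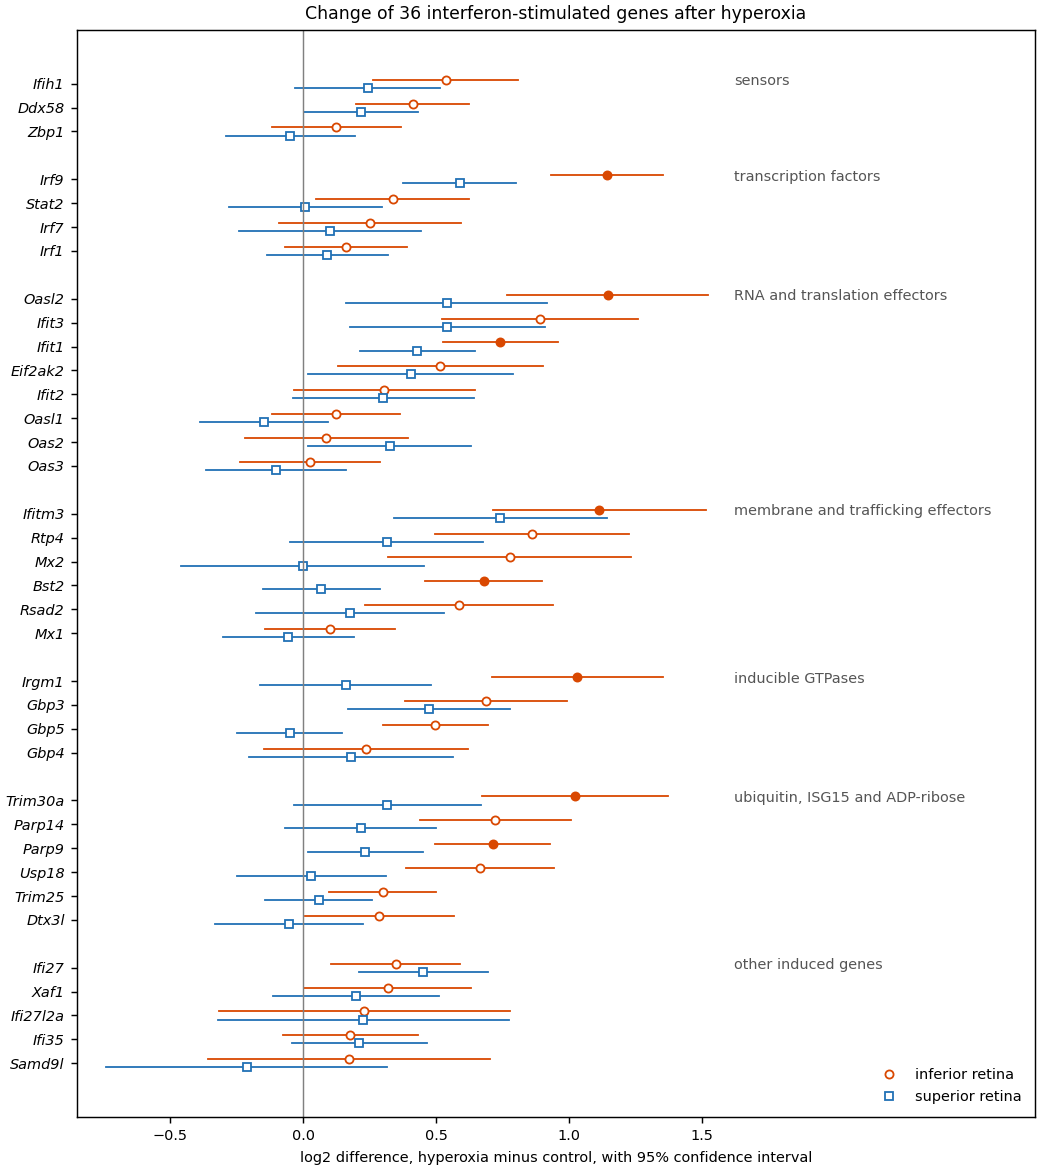
Log2 difference between hyperoxia and control (horizontal axis) for each of the 36 members, in blocks by role, with 95% confidence intervals from the model. Circles are the inferior and squares the superior retina, and filled symbols mark an adjusted p under 0.05. All circles lie above 0, 8 of them filled, and no square is filled.

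Taken as the mean change over both regions, 9 members passed the test as higher, against 0.447% of all probe sets. This adds *Ifit3* and *Gbp3* to those of the inferior retina and leaves out *Bst2*. *Irf9* rose by 0.86 (adjusted p = 0.000987), *Ifit1* by 0.59 (adjusted p = 0.00858), *Ifitm3* by 0.93 (adjusted p = 0.0173) and *Oasl2* by 0.84 (adjusted p = 0.0204). *Parp9* rose by 0.47 (adjusted p = 0.0214), *Ifit3* by 0.72 (adjusted p = 0.0395), *Trim30a* by 0.67 (adjusted p = 0.0426), *Gbp3* by 0.58 (adjusted p = 0.0428) and *Irgm1* by 0.59 (adjusted p = 0.0483). In 13 members all 4 hyperoxia arrays lay above all 4 control arrays, against 2.9% of probe sets, and 24 had an unadjusted p under 0.05 and were higher, against 4.96%. The count fell to 1 without control superior replicate 2 or hyperoxia superior replicate 1, to 2 without hyperoxia superior replicate 2 or hyperoxia inferior replicate 2, and to 4 without control superior replicate 1. It was 6 without control inferior replicate 2, where *Gbp3*, *Irgm1* and *Trim30a* no longer passed (adjusted p = 0.0710, 0.0971 and 0.0880).

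In control retina no member passed between inferior and superior (limma, 0 of 36, and 0 by the methods' t-test), and no probe set at all was called as higher (0%). The median log2 difference, inferior minus superior, was -0.02, and 0.0013 without control inferior replicate 2, the array with lens transcripts. At an unadjusted p under 0.05 there were 2 members lower and 0 higher, against 2.81% of probe sets lower: *Usp18* at -0.35 (adjusted p = 0.916) and *Oasl1* at -0.25 (adjusted p = 0.930). The levels of *Oasl1* were 7.34 and 7.16 for control superior, 7.00 and 7.00 for control inferior, 7.18 and 7.02 for hyperoxia superior, and 7.05 and 7.20 for hyperoxia inferior retina. *Irgm1* had -0.31 (adjusted p = 0.945) and *Eif2ak2* 0.32 (adjusted p = 0.947). These 4 were the largest differences, and control inferior replicate 2 was the lower array for *Usp18* and *Irgm1* and the higher for *Eif2ak2*.

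After hyperoxia the inferior retina lay above the superior retina in 32 of 36 members, with a median log2 difference of 0.29 (range -0.07 to 0.63). The sign changed under at least 1 alternative in 11 of 36 members, all with differences of at most 0.14 in size. No member passed (limma, 0 of 36, and 0 by the methods' t-test), against 0.125% of all probe sets called as higher, while 20 members had an unadjusted p under 0.05 and were higher, against 4.25%, and 23 did not overlap between the regions, against 20%. *Irf9* came nearest with 0.59 (adjusted p = 0.0884), and *Trim30a* had the largest difference at 0.63 (adjusted p = 0.282). Without hyperoxia inferior replicate 2 the median was 0.19.

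Whether hyperoxia moved the regions by different amounts was tested directly, as the change in the inferior minus that in the superior retina. No member passed (limma, 0 of 36, and 0 by the methods' t-test), and 12 were higher at an unadjusted p under 0.05, against 0.00347% and 3.02% of all probe sets. The change was larger in the inferior retina in 33 of 36 members, with a median log2 difference of 0.30. The largest were *Irgm1* at 0.87 (adjusted p = 0.593), *Mx2* at 0.78 (adjusted p = 0.790) and *Trim30a* at 0.71 (adjusted p = 0.707). *Bst2* had 0.61 (adjusted p = 0.562), *Gbp5* 0.55 (adjusted p = 0.559) and *Irf9* 0.55 (adjusted p = 0.593). The exceptions were *Oas2* at -0.24, *Ifi27* at -0.10 and *Ifi35* at -0.03. The sign changed under at least 1 alternative in 9 of 36 members, all with differences of at most 0.15 in size. *Ifi27* and *Ifi35* were above 0 without hyperoxia inferior replicate 1. *Ifi27l2a* and *Ifit2* fell below 0 in 6 alternatives each, and *Eif2ak2*, *Gbp4*, *Irf1*, *Irf7* and *Xaf1* in fewer. So a member that passed in the inferior and not in the superior retina was not shown to differ between them. The median of these differences was 0.19 without hyperoxia inferior replicate 2 and 0.38 without replicate 1. These comparisons share arrays with each other.

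Genes upstream of the members were looked at next, as a description. Of 21 interferon ligands 16 were measured, and none passed in any of the 6 comparisons; in the inferior retina their median log2 difference was 0.10 and 2 were higher at an unadjusted p under 0.05. *Ifnb1*, the type I interferon that many cells make first, had log2 levels of 4.41 and 4.36 for control superior, 4.28 and 4.42 for control inferior, 4.73 and 4.32 for hyperoxia superior, and 4.37 and 4.48 for hyperoxia inferior retina, with a difference of 0.08 (95% interval -0.23 to 0.39). *Ifng*, the type II interferon, had 0.08 (-0.29 to 0.45). The group means of *Ifnb1*, *Ifng* and several other ligands lay under 6, the limit taken for dim probe sets. Small changes were therefore not detectable there. 

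Of 9 receptors and kinases none passed (median -0.02, and 1 higher at an unadjusted p under 0.05). Log2 differences of the inferior retina were -0.07 for *Ifnar1*, 0.44 for *Ifnar2* (adjusted p = 0.287), -0.09 for *Ifngr1*, 0.18 for *Ifngr2*, -0.11 for *Jak1* and -0.02 for *Tyk2*. Among 18 measured signalling genes and sensors 0 passed there by limma, and 5 were higher at an unadjusted p under 0.05. *Sting1*, the adaptor of the cytosolic DNA sensor, had levels of 5.88 and 6.07, 5.98 and 6.00, 6.42 and 6.46, and 6.52 and 6.85 in the control superior, control inferior, hyperoxia superior and hyperoxia inferior retina, with a difference of 0.69 in the inferior retina (adjusted p = 0.0682), and rose by 0.58 in the mean of both regions (limma, adjusted p = 0.0298).

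Of 16 negative regulators 1 passed the test as higher in the inferior retina and 0 as lower, with log2 differences of -0.47 to 1.09. At an unadjusted p under 0.05, 3 were higher and 2 lower there. Between the regions after hyperoxia, 1 was higher and 3 lower in the inferior retina at that limit. *Socs3*, which shuts off cytokine receptors and is induced by several of them, had levels of 7.54 and 7.33 for control superior, 7.36 and 7.49 for control inferior, 7.64 and 7.57 for hyperoxia superior, and 8.37 and 8.65 for hyperoxia inferior retina. It rose by 1.09 in the inferior retina (limma, adjusted p = 0.00832) and, after hyperoxia, was above the superior retina by 0.91 (adjusted p = 0.0443).

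Of 60 other interferon-inducible genes 50 were measured, and 1 passed the test as higher after hyperoxia in the inferior retina. At an unadjusted p under 0.05, 19 of them were higher there and 0 lower, and the median log2 difference was 0.25. *B2m*, the light chain of MHC class I, had levels of 9.48 and 9.45 for control superior, 9.35 and 9.49 for control inferior, 9.95 and 10.02 for hyperoxia superior, and 10.69 and 10.64 for hyperoxia inferior retina. *B2m* rose by 1.25 ± 0.09 (SE) in the inferior retina (limma, adjusted p = 0.000931) and, after hyperoxia, was above the superior retina by 0.68 (adjusted p = 0.0376). In the mean of both regions *B2m* rose by 0.89, *Lgals3bp* by 0.80 (adjusted p = 0.0179) and *Herc6* by 0.52 (adjusted p = 0.0438). *B2m* and *Socs3* are likewise among the genes the study selected on these arrays.

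Markers of glia were set beside the members. Most genes of both glial lists are also among those the study selected on these arrays, so their direction and the order of their groups are not independent evidence. Of 19 measured markers of microglia and macrophages, the resident phagocytes of the retina, 14 passed as higher in the inferior retina and 1 in the superior. Their median deviation from each gene's mean was -0.46 and -0.51 for control superior and -0.34 and -0.42 for control inferior retina. It was 0.01 and 0.00 for hyperoxia superior and 0.86 and 0.92 for hyperoxia inferior retina. Of 11 genes of reactive Muller glia, the support cells that span the retina, 10 passed as higher in the inferior retina and 2 in the superior. Their median deviations were -0.50 to -0.44 on the control arrays, 0.03 and 0.08 in hyperoxia superior and 0.92 and 0.89 in hyperoxia inferior retina. *Socs3* is on this list too, and no member is on either. Among the retina markers, *Glul*, the glutamine synthetase of Muller glia, fell by 0.70 in the inferior retina (limma, adjusted p = 0.0416), and *Rlbp1*, a retinoid carrier of the same cells, had a difference of -0.02 (95% interval -0.25 to 0.21). The part of both lists in the members' change was not tested.

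**Figure D4:**
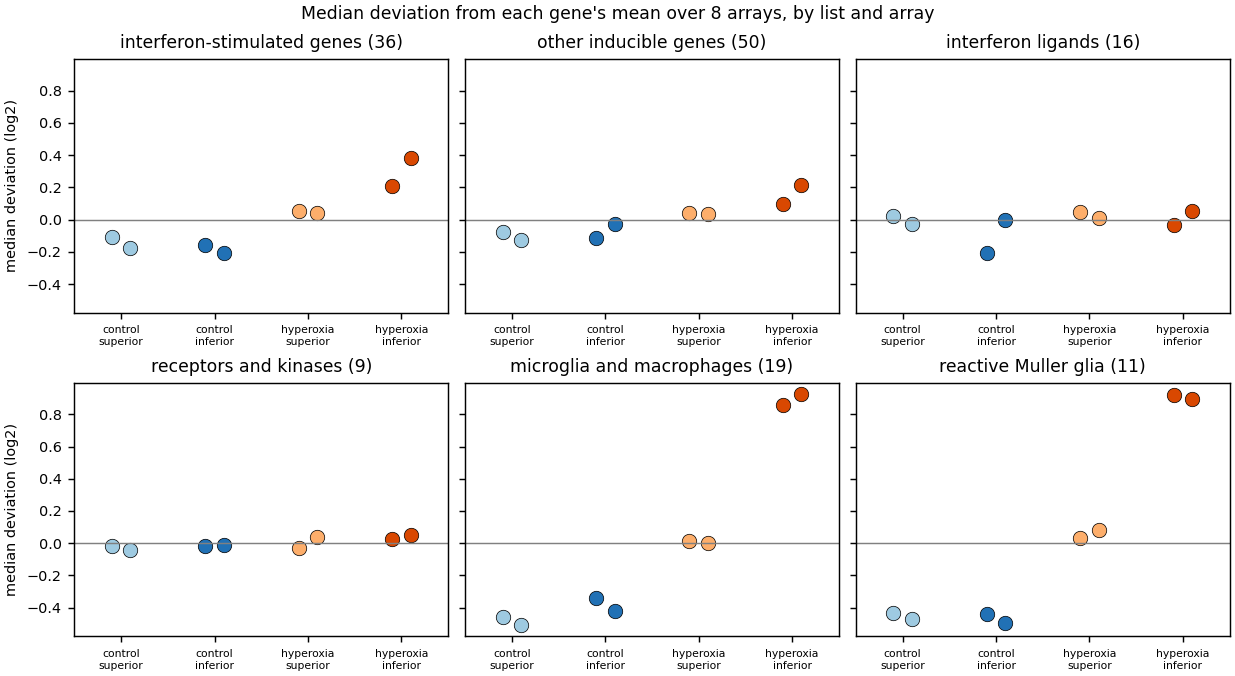
Median deviation of each gene list from its genes' means over the 8 arrays (vertical axis, log2), for each array, with the number of measured genes in brackets and colours for the 4 groups. The members, microglia and Muller glia lists lie lowest on control arrays and highest on hyperoxia inferior arrays, and the receptors and kinases stay between -0.04 and 0.05.

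Of 15 measured markers of blood leukocytes none passed (0 higher at an unadjusted p under 0.05 in the inferior retina), with a median log2 difference of 0.12 there. Of 9 endothelial markers none passed, 1 was higher and 1 lower at an unadjusted p under 0.05, and the median was -0.12. Markers of the pigment epithelium, which adheres to the retina, had median deviations of -0.85 and -0.14 for control superior, -0.38 and 0.28 for control inferior, 0.36 and 0.47 for hyperoxia superior, and 0.18 and 0.20 for hyperoxia inferior retina. None of these 12 passed, at an unadjusted p under 0.05 there were 9 higher for superior and 1 for inferior retina, and their part in the members' values was not tested.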

How the data were processed

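RNA of 8 retinal samples was hybridised to Affymetrix Mouse Gene 1.0 ST arrays. The authors imported the scans into Partek, corrected the background by RMA and summarized probes by median polish, and the deposited values are log2 levels for 28853 probe sets. Versions: not given in the sources used here. They were used with no further normalization. Of the probe sets, 21789 have 1 gene symbol in the platform annotation, 1621 several and 5443 none; where a gene had several of the first kind, the one with the highest mean stood for it. All 36 measured members were matched by Entrez ID to RefSeq's gene table.

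Group means were fitted to all 8 arrays with limma 3.58.1 in R 4.3.3 (4 residual and 4.47 prior degrees of freedom), with contrasts for 6 comparisons and Benjamini-Hochberg adjustment over all probe sets at 0.05. Per-array values were given for members past the test in any comparison, the 12 and 6 with the largest change in the inferior and superior retina, and the 4 with the largest difference between control regions. Other pathway genes were named if past the test, besides a fixed set. The second *Irf1* probe set was added after its values were seen. The alternatives were quantile normalization, median centring, probe sets with a mean under 6 left out, 1-symbol probe sets, a fit to only the arrays compared, a robust prior, a trend of the variance with level, the methods' t-test (the contrast of the 2-way model without moderation), a replicate block, averaging the probe sets of a gene, and leaving out each array. The members and lists were chosen with earlier results of these data known, and no list was tested as a set.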

Additional observations from a re-analysis of the deposited data

How the results depend on the processing

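No member called in a comparison changed direction under any alternative. In the inferior retina 2 of 36 members did so, *Oas3* (down to -0.09) and *Samd9l* (down to -0.09). In the superior retina it was 11 of 36, with differences of at most 0.23 in size. Between the regions after hyperoxia it was 11 of 36 (at most 0.14), and for the difference in the change 9 of 36 (at most 0.15). It was 5 of 36 in the mean of both regions (at most 0.04) and 23 of 36 between control regions (at most 0.18). The count of 8 members in the inferior retina became 13 without dim probe sets, 13 over 1-symbol probe sets, 13 with a variance trend, 1 with only the arrays of the comparison and 0 by the methods' t-test, while the probe sets called in either direction went from 142 to 259, 184, 374, 39 and 2 in the same order. The count ran from 1 to 5 when an array was left out, which leaves fewer degrees of freedom; its median of 0.45 became 0.54 without dim probe sets and ran from 0.38 to 0.48. The count of 9 in the mean of both regions became 14 without dim probe sets and 0 by the methods' t-test, where the probe sets called went from 164 to 270 and 2, and ran from 1 to 7. The count of 0 between regions after hyperoxia became 1 without dim probe sets and 1 with a variance trend (probe sets called from 40 to 70 and 84), and its median of 0.29 ran from 0.19 to 0.35; the median difference between the regions in the change ran from 0.19 to 0.38. Replicate numbers were not taken to pair the samples, since neither labels nor methods say that they mark the same animals. Same-numbered deviations correlated by -0.02 to 0.14 between groups, which cannot settle this. Each retina was cut into both parts, so superior and inferior samples of a condition may share animals. The main fit treated them as independent. With a replicate block, 11 members passed in the inferior retina by limma, with *Ifit3*, *Rtp4* and *Gbp3* added. In the mean of both regions 8 passed, where *Irgm1* (adjusted p = 0.0768) and *Trim30a* (adjusted p = 0.0567) no longer did. The calls over all probe sets in the fit with a block are not given here. With 2 arrays a group and dim probe sets for 9 members, small changes were not detectable.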
